A study of Mus musculus with 12 samples.

Results

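The Ugt1a glucuronosyltransferases were described in the liver of 12 adult male C57Bl/6J mice, as 8 genes taken by their symbols, Ugt1a1, Ugt1a2, Ugt1a5, Ugt1a6a, Ugt1a6b, Ugt1a7c, Ugt1a9 and Ugt1a10, out of 36047 genes with a listed transcript. The annotation places a 9th gene, Ugt1a8, in the same locus, and it was added to the sum over the locus. The mice had eaten experimental diets for 7 days, 3 mice in each of 4 groups. RF.Ctrl mice ate a regular-fat control diet, RF.SAAR mice a regular-fat diet restricted in sulfur amino acids, HF.Ctrl mice a high-fat control diet and HF.SAAR mice a high-fat restricted diet. No diet held cysteine, so the controls also lacked it, and in the restricted (SAAR) diets methionine was lowered and glutamic acid was added in its place. The mice were housed singly and deprived of food before euthanasia, so the values describe livers after a period without food. Whole liver was sequenced, in which fewer cells of a type and less RNA per cell cannot be told apart. The family was selected on measured values, since Ugt1a9 was already known from these same mice to differ between the restricted and control diets. The SAAR comparisons of the Ugt1a genes are therefore given as descriptions without p-values.

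UDP-glucuronosyltransferases are enzymes of the endoplasmic reticulum membrane that attach glucuronic acid, taken from UDP-glucuronate, to bilirubin, steroids, phenols and drugs, which makes them water-soluble for export into bile and urine. In the Ugt1a locus, each gene has its own promoter and a variable exon that encodes the substrate-binding part of the enzyme, and this exon is spliced to exons that all genes share and that encode the part binding UDP-glucuronate. Ugt1a1 is the enzyme that conjugates bilirubin, and its loss in humans causes inherited jaundice. The human counterparts of Ugt1a7c, Ugt1a8 and Ugt1a10 are known mainly from the digestive tract rather than the liver.

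The locus spans chr1:88055388-88220002 on the plus strand of GRCm38, with the variable exons in the order Ugt1a10, Ugt1a9, Ugt1a8, Ugt1a7c, Ugt1a6b, Ugt1a6a, Ugt1a5, Ugt1a2 and Ugt1a1. The 18 annotated transcripts were all listed in the deposited files with lengths equal to the annotation. The shared exons at chr1:88215044-88215175, chr1:88215795-88215882 and chr1:88216138-88216357 each belong to transcripts of 9 genes, so that reads from them cannot name a gene. Members are told apart through reads in their variable exons, and kallisto, the program that made the counts, compares stretches of 31 bases. It divides reads that match several transcripts among them by estimation. The counts of each member therefore hold an estimated part of the shared reads. Of the 2160 such stretches in the Ugt1a9 transcript ENSMUST00000073772, 696 occurred in no other gene, and in Ugt1a1 910 of 2194 did. The variable exons of Ugt1a9 and Ugt1a10 were identical at 91.6% of aligned bases and those of Ugt1a6a and Ugt1a6b at 97.0%. The stretches of 60 coding bases in which each pair differed most are shown to make visible what the separation of these close members rests on, with capitals at the differing bases, 11 in the former pair and 9 in the latter.
Ugt1a9, chr1:88071287-88071346: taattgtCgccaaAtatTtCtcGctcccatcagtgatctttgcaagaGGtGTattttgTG
Ugt1a10, chr1:88055945-88056004: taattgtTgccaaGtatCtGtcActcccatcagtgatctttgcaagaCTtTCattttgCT
Ugt1a6a, chr1:88138769-88138828: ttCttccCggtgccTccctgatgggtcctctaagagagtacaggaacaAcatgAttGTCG
Ugt1a6b, chr1:88107237-88107296: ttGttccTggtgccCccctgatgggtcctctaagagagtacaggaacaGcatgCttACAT

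As each member is transcribed from its own promoter, the 250 bases before the RefSeq start (GRCm38.p6, plus strand) are shown for Ugt1a9, which differed most between diets, for Ugt1a10, its closest relative, which was barely detected, and for Ugt1a1, the most abundant member. RefSeq held 8 of the 9 genes, all but Ugt1a6b. The window of Ugt1a6a ends at chr1:88134808, so the bases before a further start inside that gene, at chr1:88138378, were not searched. Capitals mark matches, on either strand, to GTTAAT, part of the site of the liver factor HNF1, or to AGGTCA, the unit bound by nuclear receptors.
Ugt1a9, chr1:88070529-88070778: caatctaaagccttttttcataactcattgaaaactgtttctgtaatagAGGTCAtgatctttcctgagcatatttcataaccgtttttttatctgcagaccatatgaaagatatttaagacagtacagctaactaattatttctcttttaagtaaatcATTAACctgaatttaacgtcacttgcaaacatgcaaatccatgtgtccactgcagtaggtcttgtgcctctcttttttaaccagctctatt
Ugt1a10, chr1:88055161-88055410: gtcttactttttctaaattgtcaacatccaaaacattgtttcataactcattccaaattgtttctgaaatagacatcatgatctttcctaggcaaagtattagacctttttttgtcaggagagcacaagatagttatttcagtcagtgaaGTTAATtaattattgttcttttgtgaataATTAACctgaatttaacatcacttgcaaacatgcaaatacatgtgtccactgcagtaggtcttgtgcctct
Ugt1a1, chr1:88211709-88211958: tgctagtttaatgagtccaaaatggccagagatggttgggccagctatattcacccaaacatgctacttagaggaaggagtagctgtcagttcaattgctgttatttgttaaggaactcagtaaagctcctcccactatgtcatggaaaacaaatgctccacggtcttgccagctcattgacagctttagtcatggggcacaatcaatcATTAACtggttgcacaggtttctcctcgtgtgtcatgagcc
The Ugt1a9 and Ugt1a10 windows were identical at 82.8% of aligned bases. GTTAAT was found before 4 of the 8 genes, Ugt1a10, Ugt1a9, Ugt1a6a and Ugt1a1, and before 6.52% of 27025 promoters. AGGTCA was found before Ugt1a9 and Ugt1a7c, 2 of the 8, and before 13.8% of all promoters. The Ugt1a9 match starts 201 bases before the start and is absent from the Ugt1a10 window. GCGTG, the core bound by the aryl hydrocarbon receptor, was found before 2 of the 8, Ugt1a8 and Ugt1a5, against 28.2% of all promoters. TGACNNNGC, the core bound by NRF2, was found before 0 of the 8 and before 10.15% of all promoters. These are matches of letters in a short window and show no binding.

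Total estimated counts per mouse ranged from 16203094 to 21230092, and the locus took between 0.0794% and 0.133% of them. Levels are given as normalized CPM, which are counts scaled to a common library size with TMM factors, and as TPM, which are divided by transcript length and can be compared between genes. Summed levels of 8 hepatocyte markers were between 74817 and 96958 normalized CPM in all mice. Summed levels of 14 pancreatic acinar markers ranged from 36.0 to 78.0 in RF.SAAR, 65.7 to 1245 in RF.Ctrl, 61.6 to 5496 in HF.Ctrl and 59.1 to 15777 in HF.SAAR. All 14 were above 1 normalized CPM in at least 1 mouse, and the high mice were spread over 3 groups. The summed level of 6 cholangiocyte markers, 5 of them above 1 normalized CPM in some mouse, was 36.2 to 43.1 in RF.SAAR and 35.2 to 38.7 in HF.SAAR, against 43.0 to 62.1 in RF.Ctrl and 43.1 to 58.3 in HF.Ctrl, and its part in the results was not tested. The Ugt1a values were nearly as large without the acinar genes in the scaling, with a log2 fold change of 2.84 for Ugt1a9 and of 0.44 for the locus in HF.SAAR vs. HF.Ctrl.

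**Figure D1:**
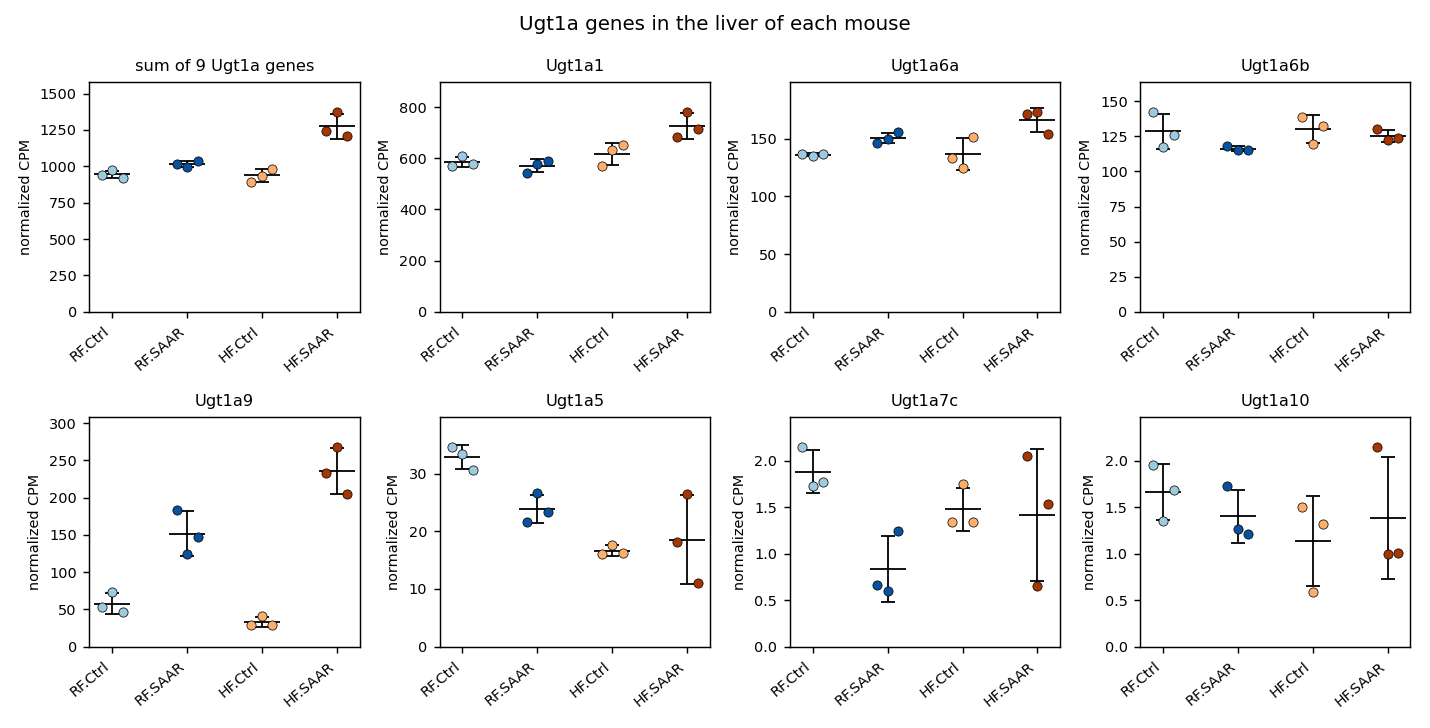
Normalized CPM (y axes, from 0) of the sum over 9 Ugt1a genes and of the 7 Ugt1a genes with enough counts to be tested, with a point for each mouse and the mean ± SD of the 3 mice of a group in black. Ugt1a9 lies between 123.6 and 267.9 in the 6 SAAR mice and between 28.7 and 73.4 in the 6 control mice. For Ugt1a6b, SAAR and control mice overlap under both fat contents.

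The locus as a whole was higher on the restricted diet under high fat and changed less under regular fat. The summed level was 942.5, 971.9 and 922.0 normalized CPM in the RF.Ctrl mice and 1015, 996.0 and 1035 in the RF.SAAR mice. It was 889.6, 936.9 and 984.5 in the HF.Ctrl mice and 1241, 1372 and 1211 in the HF.SAAR mice. The restricted and control mice did not overlap under either fat content. On the log2 scale the fold change was 0.10 (SE 0.080) in RF.SAAR vs. RF.Ctrl, which was not called, and 0.44 (SE 0.080) in HF.SAAR vs. HF.Ctrl, a 1.36-fold higher level, which was called. The latter call was lost without HF.Ctrl replicate 1 (log2 fold change 0.41) or HF.SAAR replicate 2 (0.38). It was also lost when only the mice of both HF groups entered the fit (0.44). The sum holds Ugt1a9, whose difference in these same mice selected the family. In HF.SAAR vs. HF.Ctrl, Ugt1a9 made up 202.6 of the locus difference of 337.6 normalized CPM. The call of the locus is therefore a description and no independent test. On the TPM scale the locus was at 467.6 ± 32.3 in RF.Ctrl, 608.2 ± 54.5 in RF.SAAR, 423.6 ± 72.1 in HF.Ctrl and 718.8 ± 30.3 in HF.SAAR (SD, n = 3).

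Ugt1a9, which conjugates phenols, was the member that differed most. It measured 53.1, 73.4 and 46.7 normalized CPM in RF.Ctrl and 183.8, 123.6 and 147.2 in RF.SAAR. It measured 28.8, 41.4 and 28.7 in HF.Ctrl and 233.4, 267.9 and 205.4 in HF.SAAR. Every restricted mouse was above every control mouse, under either fat content and across both. The log2 fold change was 1.39 (SE 0.20) in RF.SAAR vs. RF.Ctrl, or 2.62-fold, and 2.84 (SE 0.21) in HF.SAAR vs. HF.Ctrl, or 7.14-fold. Leaving out each mouse in turn gave 1.23 to 1.60 and 2.72 to 3.03.

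Among the Ugt1a genes, 7 of 9 had enough counts to be tested, and 1 was called at an adjusted p under 0.05 in RF.SAAR vs. RF.Ctrl, where 1.49% of 14670 tested genes were called, and 1 in HF.SAAR vs. HF.Ctrl, where 1.97% were. This gene was Ugt1a9 in both. The groups of mice did not overlap for 4 of the 7 in the regular-fat comparison, against 18.2% of all tested genes, and for 3 of the 7 in the high-fat comparison, against 17.9%. As these comparisons selected the family, nothing further is read from the counts. The median log2 fold change of the 7 was -0.14 under regular fat and 0.23 under high fat, where the medians of all tested genes were -0.0013 and -0.0014.

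**Figure D2:**
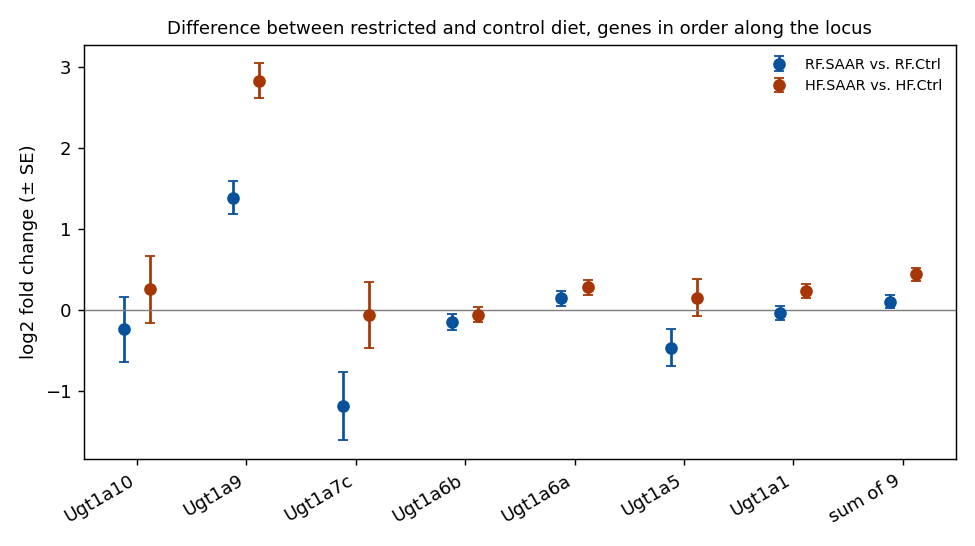
Log2 fold change (y axis) with its SE for the 7 tested Ugt1a genes, in their order along the locus, and for the sum of 9 genes, in RF.SAAR vs. RF.Ctrl (blue) and HF.SAAR vs. HF.Ctrl (brown). Ugt1a9 stands at 1.39 and 2.84, and its nearest relative Ugt1a10 at -0.24 and 0.26.

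Ugt1a1, the bilirubin-conjugating enzyme, was the most abundant member in every group. It measured 571.4, 609.3 and 578.2 normalized CPM in RF.Ctrl and 542.3, 578.2 and 590.5 in RF.SAAR, and these groups overlapped. It measured 569.0, 630.9 and 652.2 in HF.Ctrl and 683.2, 779.8 and 714.1 in HF.SAAR, and these did not overlap. Ugt1a1 had a log2 fold change of -0.04 (SE 0.088) under regular fat and 0.23 (SE 0.088) under high fat, and neither was called. The sign of the former depended on the scaling, as it was 0.12 with library sizes alone.

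Ugt1a6a and Ugt1a6b conjugate small planar phenols and differ little in sequence. Ugt1a6b measured between 115.3 and 142.2 normalized CPM over all 12 mice, and its log2 fold change was -0.14 (SE 0.098) under regular fat and -0.05 (SE 0.098) under high fat. Ugt1a6a, summed over its transcripts, measured 134.8 to 137.1 in RF.Ctrl, 146.8 to 155.9 in RF.SAAR, 124.9 to 152.0 in HF.Ctrl and 154.5 to 173.1 in HF.SAAR. The log2 fold change of the sum was 0.15 (SE 0.096) and 0.28 (SE 0.096), and neither was called. The SAAR and control mice did not overlap for Ugt1a6a under either fat content, and overlapped for Ugt1a6b under both.

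The sum of Ugt1a6a hid unlike transcripts. Its transcript ENSMUST00000113134 starts at chr1:88134809 with a leader exon and measured between 80.4 and 102.4 normalized CPM over the 12 mice. The log2 fold change of this upstream-start transcript was -0.11 (SE 0.10) in RF.SAAR vs. RF.Ctrl and -0.02 (SE 0.10) in HF.SAAR vs. HF.Ctrl. ENSMUST00000014263 starts inside the gene at chr1:88138378, just before the variable exon. This internal-start transcript measured 22.7, 18.6 and 17.4 in RF.Ctrl, 39.8, 36.3 and 52.8 in RF.SAAR, 20.5, 16.2 and 19.6 in HF.Ctrl and 51.2, 46.6 and 43.8 in HF.SAAR. No restricted mouse overlapped a control mouse. Its log2 fold change was 1.13 (SE 0.16) under regular fat and 1.33 (SE 0.16) under high fat. It made up 16.8% ± 1.5 of the sum of both transcripts in RF.Ctrl, 32.3% ± 6.6 in RF.SAAR, 16.3% ± 0.78 in HF.Ctrl and 33.2% ± 0.39 in HF.SAAR (SD, n = 3).

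At the transcript level, 10 of the 18 Ugt1a transcripts had enough counts to be tested, and 2 were called in each SAAR comparison, the internal-start transcript of Ugt1a6a and the transcript of Ugt1a9, where 0.148% and 0.356% of 35707 transcripts were called under regular and high fat. These comparisons belong to those that selected the family. The separation of the Ugt1a6a transcripts rests on few bases. The internal-start transcript has 93 of 2235 stretches of 31 bases that the upstream-start transcript lacks, of which 50 occur in no other listed transcript. All 2267 stretches of the upstream-start transcript also occur in ENSMUST00000113135, listed under Ugt1a7c, whose estimated counts were 0 in 9 mice and at most 12.0. The deposited counts carry no error of read assignment, so the share of each start is an estimate of unknown precision.

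**Figure D3:**
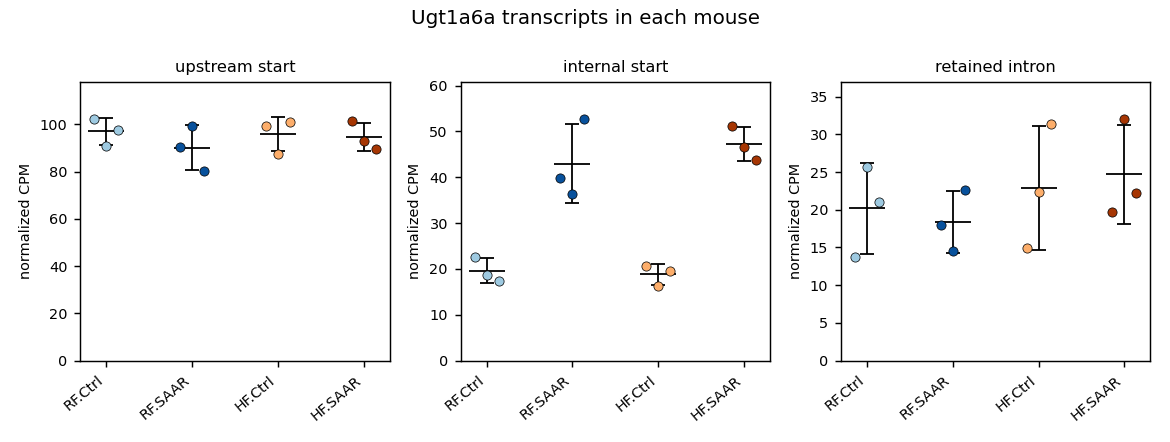
Normalized CPM (y axes, from 0) of 3 Ugt1a6a transcripts, with a point for each mouse and the mean ± SD of the 3 mice of a group in black. The internal-start transcript lies between 36.3 and 52.8 in the SAAR mice and between 16.2 and 22.7 in the control mice, while the upstream-start transcript overlaps in both comparisons.

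Ugt1a5 measured 34.7, 33.5 and 30.7 normalized CPM in RF.Ctrl and 21.7, 26.6 and 23.5 in RF.SAAR. It measured 16.1, 17.7 and 16.2 in HF.Ctrl and 18.2, 26.4 and 11.03 in HF.SAAR. RF.Ctrl was above every other group without overlap, and HF.SAAR was the most variable. Ugt1a5 had a log2 fold change of -0.46 (SE 0.22) under regular fat and 0.15 (SE 0.23) under high fat, and neither was called.

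The other members were near the limit of detection. Ugt1a7c measured between 0.602 and 2.15 normalized CPM and Ugt1a10 between 0.587 and 2.15, with log2 fold changes of -1.18 (SE 0.42) and -0.24 (SE 0.41) under regular fat and of -0.06 (SE 0.41) and 0.26 (SE 0.42) under high fat. These rest on 11.3 to 38.3 estimated counts of Ugt1a7c and 10.6 to 40.02 of Ugt1a10 in a mouse, and none was called. Ugt1a2 had at most 11.2 estimated counts in a mouse and was at 0 in 6 of 12 mice, and Ugt1a8 was at 0 in 10 of 12. Neither passed the filter on low counts. An antisense gene, Gm20528, has transcripts whose bases lie wholly within Ugt1a exons and that the files do not list, and reads from it could not be told apart, as the use of strand in counting is not stated.

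On the TPM scale, the order of the members differed between the diets. In RF.Ctrl, Ugt1a1 was at 294.1 ± 25.0 TPM, followed by Ugt1a6a (62.9 ± 2.0), Ugt1a6b (62.4 ± 2.6), Ugt1a9 (29.8 ± 8.4) and Ugt1a5 (16.7 ± 1.0), and the neighbours Ugt1a6a and Ugt1a6b overlapped. In HF.Ctrl the order was Ugt1a1 (283.1 ± 49.5), Ugt1a6b (58.2 ± 10.8), Ugt1a6a (57.8 ± 13.2), Ugt1a9 (15.2 ± 1.8) and Ugt1a5 (7.70 ± 0.74), with the same overlap. In RF.SAAR, Ugt1a1 (343.7 ± 21.7) was followed by Ugt1a9 (94.9 ± 25.8), which overlapped with Ugt1a6a (85.1 ± 6.2). In HF.SAAR, Ugt1a9 (136.7 ± 6.5) was below Ugt1a1 (412.4 ± 24.4) and above Ugt1a6a (87.4 ± 7.9) without overlap. Ugt1a9 thus ranked 4th in the control groups and 2nd in the restricted groups.

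The make-up of the locus followed the same pattern. Ugt1a9 took 5.07% to 7.56% of the Ugt1a counts in the RF.Ctrl mice and 12.4% to 18.1% in the RF.SAAR mice. It took 2.92% to 4.42% in HF.Ctrl and 17.0% to 19.5% in HF.SAAR. Ugt1a1 took 62.0% ± 1.2 in RF.Ctrl, 56.2% ± 2.4 in RF.SAAR, 65.9% ± 1.7 in HF.Ctrl and 57.0% ± 2.0 in HF.SAAR (SD, n = 3). Shares within the locus fall for one member when another rises, so a lower share is no lower level. In normalized CPM, HF.SAAR exceeded HF.Ctrl by 337.6 for the locus, to which Ugt1a9 contributed 202.6, Ugt1a1 108.3 and Ugt1a6a 29.5. RF.SAAR exceeded RF.Ctrl by 70.1, a net value in which Ugt1a9 was higher by 93.8 and Ugt1a6a by 14.5, whereas Ugt1a1, Ugt1a6b and Ugt1a5 stood at -15.9, -12.3 and -9.03.

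**Figure D4:**
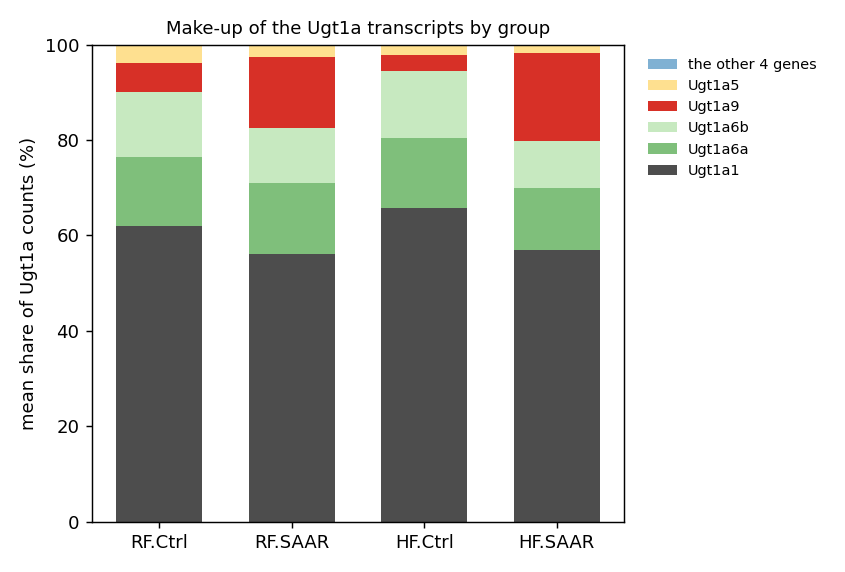
Mean share (y axis, percent) of each Ugt1a gene in the estimated counts of the locus, stacked for the 4 groups of 3 mice. Ugt1a9 (red) holds 6.09% in RF.Ctrl, 14.9% in RF.SAAR, 3.53% in HF.Ctrl and 18.4% in HF.SAAR, and Ugt1a10, Ugt1a7c, Ugt1a2 and Ugt1a8 together are too small to be seen.

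The effect of fat within a diet was compared in mice that also belong to the SAAR comparisons, with edgeR's quasi-likelihood test and Benjamini-Hochberg adjustment over all genes. In HF.SAAR vs. RF.SAAR, 0.0477% of genes were called and no Ugt1a gene was among them. At an unadjusted p under 0.05 were 2 of the 7 and 820 of all 14670 tested genes. The log2 fold change was 0.64 for Ugt1a9 (SE 0.20, adjusted p = 0.65) and 0.35 for Ugt1a1 (SE 0.088, adjusted p = 0.43). For the locus it was 0.33 (SE 0.080, adjusted p = 0.40). All 3 HF.SAAR mice were above all 3 RF.SAAR mice in each of these, and also for Ugt1a6b, at 0.11 (SE 0.098, adjusted p = 0.99). The share of all genes without overlap was not computed for the comparisons of fat, so nothing is read from such separations. DESeq2 called 85 genes, with Ugt1a1 among them (adjusted p = 0.026, range over alternatives 0.026 to 1). In HF.Ctrl vs. RF.Ctrl, edgeR called 0% of genes, with 527 genes at an unadjusted p under 0.05, and DESeq2 called 31. Ugt1a5 was lower in all 3 HF.Ctrl mice, at -0.98 on the log2 scale (SE 0.23, adjusted p = 0.52), and Ugt1a9 likewise, with -0.81 (SE 0.20, adjusted p = 0.69). DESeq2 called both, at an adjusted p of 0.024 for Ugt1a5 (range over alternatives 0.024 to 1) and of 0.045 for Ugt1a9 (0.045 to 1).

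Whether the SAAR difference depended on fat was tested as the interaction. For it edgeR called 0.00682% of genes, a single gene, Cyp39a1, and DESeq2 called 16 genes. The interaction was 1.44 on the log2 scale for Ugt1a9 (SE 0.29, adjusted p = 0.42 by edgeR, 0.0015 by DESeq2, range over alternatives 0.0015 to 1) and 0.34 for the locus (SE 0.11, adjusted p = 0.999). The interaction is the difference of the comparisons that selected the family and is not independent of them. The internal-start Ugt1a6a transcript gave 0.20 (SE 0.23, adjusted p = 1 by edgeR).

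Genes around glucuronidation were taken from lists. The lists were chosen with earlier results of these data known, so their counts and p-values are no independent tests. As a background for their counts, edgeR called 0.600% of all tested genes higher and 0.886% lower on the restricted diet under regular fat. Under high fat these shares were 1.01% for higher genes and 0.961% for lower genes. At an unadjusted p under 0.05 by edgeR were 1988 of all 14670 tested genes under regular fat and 1825 under high fat. DESeq2 called 591 and 595 genes, higher and lower together. A list of 8 genes covered the making, moving and use of UDP-glucuronate and its precursors and the removal of glucuronic acid from conjugates. Of these genes, 1 was called higher in each comparison by edgeR and 0 lower, while DESeq2 called 2 higher and 1 lower under high fat. The gene called by edgeR was Ugdh, the dehydrogenase that makes UDP-glucuronate, with 138.0 ± 13.8 normalized CPM in RF.Ctrl, 269.3 ± 53.5 in RF.SAAR, 136.1 ± 8.3 in HF.Ctrl and 224.5 ± 32.1 in HF.SAAR (SD, n = 3). Ugdh rose by 0.96 on the log2 scale (SE 0.15, adjusted p = 0.0049 by edgeR) under regular fat and by 0.72 (SE 0.15, adjusted p = 0.020 by edgeR) under high fat. The list median was -0.06 and -0.08, against -0.0013 and -0.0014 for all tested genes.

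Of 12 genes that turn heme into bilirubin or carry bilirubin and its conjugates, none was called under regular fat, with 4 at an unadjusted p under 0.05 by edgeR and none called by DESeq2. Under high fat edgeR called 1 higher and 1 lower, and DESeq2 2 in each direction. Hmox2, a heme oxygenase, rose by 0.52 on the log2 scale (SE 0.10, adjusted p = 0.020 by edgeR). Abcg2, a canalicular export pump, fell, at -0.60 on the log2 scale (SE 0.11, adjusted p = 0.011 by edgeR). The list median was -0.04 in both comparisons.

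Of 12 regulators known for Ugt1a genes, among them Nfe2l2 (NRF2), Ahr, Nr1i3 (CAR), Nr1i2 (PXR) and Ppara, none was called in either SAAR comparison by edgeR or DESeq2, with 1 and 3 at an unadjusted p under 0.05. The medians were 0.12 and 0.10. Nfe2l2 itself had log2 fold changes of 0.11 (SE 0.15, adjusted p = 0.85 by edgeR) and 0.05 (SE 0.15, adjusted p = 0.95 by edgeR). These are mRNA levels, and the activity of these factors was not measured.

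The list of NRF2 target genes, which encode enzymes of conjugation and antioxidant defence, was the longest of the lists. By edgeR 4 of 18 rose under regular fat and 5 of 18 under high fat, by DESeq2 5 and 7, and 0 fell by either, with medians of 0.35 and 0.54. Gstm1, a glutathione transferase, was at 598.3 ± 67.1 normalized CPM in RF.Ctrl, 906.7 ± 40.3 in RF.SAAR, 462.7 ± 21.9 in HF.Ctrl and 1151 ± 49 in HF.SAAR (SD, n = 3). The change in Gstm1 was 0.60 on the log2 scale (SE 0.094, adjusted p = 0.0066 by edgeR) and 1.31 (SE 0.095, adjusted p = 1.1e-05 by edgeR). Gsta2, another glutathione transferase, rose by 1.26 (SE 0.18, adjusted p = 0.0043 by edgeR) and 2.27 (SE 0.18, adjusted p = 2.0e-05 by edgeR) on the log2 scale. Gstm3 rose under high fat, by 2.03 (SE 0.21, adjusted p = 0.00035 by edgeR), as did the quinone reductase Nqo1, by 1.40 (SE 0.18, adjusted p = 0.00094 by edgeR). Under regular fat they stood at 0.32 and 0.34 and were not called. The counts are completed by Ephx1, a microsomal epoxide hydrolase called in both, and Aox1, an aldehyde oxidase called under regular fat, which were named after their values were seen. Gclc, Gclm, Txnrd1, Srxn1, Hmox1 and Slc7a11, also listed and also named after their values were seen, were not called by edgeR in either comparison. Gclc, for example, stood at 0.62 (SE 0.21, adjusted p = 0.21 by edgeR) and 0.42 (SE 0.21, adjusted p = 0.47 by edgeR). Reads of Gst genes can be shared among near-identical copies.

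Of 7 AHR target genes, 6 were tested, and Nqo1 alone rose, under high fat. Cyp1a1 and Cyp1a2, the classical targets of this receptor, named after their values were seen, were not called and stood at -0.32 and -0.10 under regular fat and at -0.20 and -0.14 under high fat. Of 12 CAR and PXR target genes, 10 were tested, and 2 rose under high fat, Gstm3 and Cyp2a5, the latter by 1.26 on the log2 scale (SE 0.23, adjusted p = 0.019 by edgeR), while DESeq2 also called 1 lower there. Cyp3a11, the classical PXR target, named after its values were seen, stood at -0.48 (SE 0.26, adjusted p = 0.50 by edgeR) under regular fat and -1.01 (SE 0.27, adjusted p = 0.093 by edgeR) under high fat. Of 11 PPARA target genes, which serve fatty acid oxidation and the response to fasting, 3 were called higher under regular fat and 1 under high fat by edgeR, but 5 and 4 by DESeq2, which also called 1 lower under high fat, so the contrast between the fat contents in these counts depended on the tool. Ehhadh rose by 0.91 (SE 0.17), Cyp4a14 by 4.77 (SE 0.74) and Cyp4a10 by 2.17 (SE 0.42) on the log2 scale in RF.SAAR vs. RF.Ctrl, with adjusted p-values of 0.019, 0.020 and 0.041 by edgeR. Under high fat these genes stood at 0.05, 3.16 (adjusted p = 0.064 by edgeR) and 1.54 and were not called by edgeR. Fgf21, a hormone of the liver, rose by 4.41 (SE 0.77, adjusted p = 0.024 by edgeR) in HF.SAAR vs. HF.Ctrl, and stood at 3.73 (SE 0.75, adjusted p = 0.053 by edgeR) under regular fat.

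Of 13 glucuronosyltransferase genes outside the locus, 11 were tested. By edgeR none was called higher in either comparison, while DESeq2 called 1 higher under high fat, and those called lower under regular and high fat were 2 and 3 by edgeR and 3 and 5 by DESeq2. The list medians were -0.42 and -0.33. Ugt2b1 measured 686.8 ± 78.2 normalized CPM in RF.Ctrl, 382.1 ± 77.0 in RF.SAAR, 772.3 ± 87.9 in HF.Ctrl and 438.1 ± 15.7 in HF.SAAR (SD, n = 3), with log2 fold changes of -0.85 (SE 0.14, adjusted p = 0.0082 by edgeR) and -0.82 (SE 0.14, adjusted p = 0.0079 by edgeR). Ugt2a3 had -0.62 (SE 0.10, adjusted p = 0.0090 by edgeR) and -0.64 (SE 0.10, adjusted p = 0.0061 by edgeR). Ugt3a1 fell under high fat, with -0.52 (SE 0.12, adjusted p = 0.045 by edgeR).

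**Figure D5:**
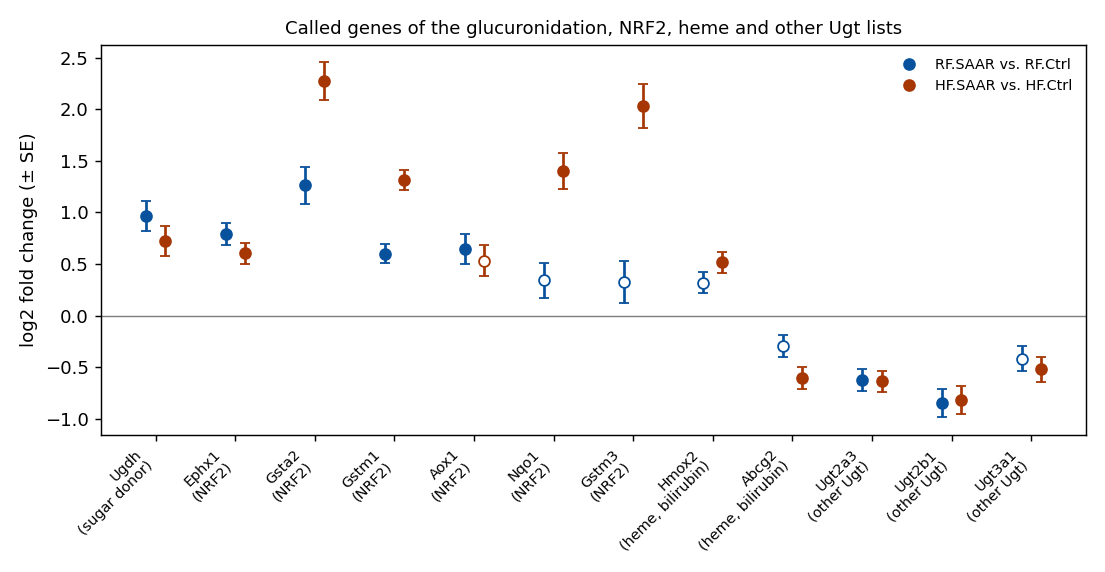
Log2 fold change (y axis) with its SE for called genes of the UDP-glucuronate, NRF2 target, heme and bilirubin, and other Ugt lists, in RF.SAAR vs. RF.Ctrl (blue) and HF.SAAR vs. HF.Ctrl (brown), with filled points at an adjusted p under 0.05 and open points above. Ugdh and the NRF2 targets shown, which are only those called higher, lie above 0, with Gsta2 at 1.26 and 2.27. Ugt2a3 and Ugt2b1 lie below 0 in both.

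The 5 genes outside the locus whose levels were most like the sum over the locus, by Pearson's r of log2 normalized CPM over 12 mice, were Crp (r = 0.944), Defb1 (0.932), Gsta2 (0.927), Paics (0.922) and Pycr1 (0.920). Crp is an acute phase protein and Paics and Pycr1 are enzymes of purine and proline synthesis. The points share the libraries and the scaling, and the 4 groups differ in level, so the values describe likeness of pattern only.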

How the data were processed

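Poly(A) RNA of whole liver from 12 mice was sequenced from both ends. Per the labels, the authors used FastQC, cutadapt and kallisto, with Ensembl transcripts of the mouse as the target. Estimated counts, as deposited, give the read number that kallisto expects for each transcript, the deposited TPM are these divided by effective length and scaled to a fixed sum, and the deposited effective lengths are in bases. None is normalized between mice. Transcripts were matched to GENCODE vM21 (GRCm38), with 116816 of 118489 found, and summed by gene and over the Ugt1a locus.

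Sums were rounded and fitted over all 12 mice with R 4.3.3, edgeR 4.0.16 and limma 3.58.1 (TMM; low counts removed by filterByExpr within groups; quasi-likelihood F-test with robust settings; Benjamini-Hochberg adjustment; threshold 0.05). 14670 genes, or 14664 with the locus as 1 gene, and 35707 transcripts were tested. SE is the log2 fold change divided by the square root of F. "Called" means an adjusted p under 0.05. DESeq2 1.42.0, other scalings and filters, length-scaled TPM counts, the compared groups alone and each mouse left out were alternatives. One added after seeing the data left out acinar genes. Replicate numbers are names only. In the main fit, a p-value sets a difference against the spread between mice, estimated over the 4 groups with information shared across genes. An exact test of 3 against 3 mice cannot reach 0.05, so none was run. The fits were tested on simulated data.

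Members and gene lists were chosen with earlier results of these data known. Named were every Ugt1a gene and its most abundant transcript, up to 4 called genes of each list by the smaller p, or its opening gene where none was called, and the 5 genes most like the locus. Intervals for depth were not computed, as estimated counts are not independent molecules.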

Additional observations from a re-analysis of the deposited data

How the results depend on the processing

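Ugt1a9 was called on the restricted diet, under regular and under high fat, with all 22 alternatives, at log2 fold changes from 1.23 to 1.60 and from 2.72 to 3.03. The comparisons selected the family and the alternatives use the same mice. The range therefore describes the processing and is no test of the difference. Scaling by library size alone moved the median log2 fold change of all genes from -0.0013 to 0.16 and from -0.0014 to 0.17 in these comparisons, and with that shift under high fat 3 Ugt1a genes were called, Ugt1a9, Ugt1a1 and Ugt1a6a. The locus in HF.SAAR vs. HF.Ctrl was not called with the compared groups alone (0.44), and ranged from 0.38 to 0.48 with each mouse left out. As a difference of log2(TPM + 0.5), which is not normalized between mice, the locus stood at 0.38 (RF.SAAR vs. RF.Ctrl), at 0.77 (HF.SAAR vs. HF.Ctrl), at 0.24 in HF.SAAR vs. RF.SAAR and -0.15 in HF.Ctrl vs. RF.Ctrl. DESeq2 called 1 Ugt1a gene among 85 genes in HF.SAAR vs. RF.SAAR, 2 among 31 in HF.Ctrl vs. RF.Ctrl and 1 among 16 in the interaction. It also called the locus, at 0.33, in HF.SAAR vs. RF.SAAR. The compared groups alone called 1 Ugt1a gene in HF.Ctrl vs. RF.Ctrl. For that fit and for library size alone, the share of all genes called was not counted. All-gene calls by DESeq2 were 591 and 595 in the SAAR comparisons, against 218 and 289 by edgeR. The cause of these changes was not tested.

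Signs turned for values near 0. With each mouse left out, the locus in HF.Ctrl vs. RF.Ctrl ranged from -0.050 to 0.024, Ugt1a10 in HF.SAAR vs. RF.SAAR from -0.51 to 0.15, Ugt1a6a in HF.Ctrl vs. RF.Ctrl from -0.077 to 0.068 and Ugt1a6b there from -0.038 to 0.10. With library size alone, Ugt1a6a stood at -0.046 and Ugt1a6b at -0.0335 in HF.Ctrl vs. RF.Ctrl. The upstream-start transcript of Ugt1a6a stood at -0.017 there. With length-scaled TPM counts, Ugt1a10 stood at 0.25 in HF.SAAR vs. RF.SAAR and Ugt1a7c at 0.24 in HF.Ctrl vs. RF.Ctrl. Of the 32 counts of called genes in the lists, 10 moved with DESeq2 and 8 with library size alone. A count moved if it changed by over 1.5 times or between 0 and another value. No paired analysis was run, as the groups held different mice and the labels name no pairs. Estimated counts of 40.02 or fewer in a mouse limit what can be said of Ugt1a7c, Ugt1a10, Ugt1a2 and Ugt1a8.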

Other observations

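Among single members, the pattern of Ugt1a9 was closest to that of Gstm1 (Pearson's r = 0.990 of log2 normalized CPM over 12 mice), followed by Cyp39a1 (0.973), Apcs (0.968), Cyp17a1 (0.957) and Atf5 (0.952). Gstm1 encodes a glutathione transferase, Cyp39a1 an oxysterol hydroxylase of bile acid synthesis, Apcs the serum amyloid P protein, Cyp17a1 an enzyme of steroid synthesis and Atf5 a transcription factor of the stress response. This list was made after the values of Ugt1a9 were seen, and the points share libraries and scaling.

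A Ugt1a6a transcript with a retained intron, ENSMUST00000124852, measured between 13.8 and 32.1 normalized CPM over the 12 mice, with a log2 fold change of -0.13 (SE 0.31) in RF.SAAR vs. RF.Ctrl and 0.11 (SE 0.31) in HF.SAAR vs. HF.Ctrl. The internal-start transcript of Ugt1a6b, ENSMUST00000113137, was at most 2.86 normalized CPM in a mouse, unlike the internal-start transcript of Ugt1a6a, which reached 52.8. Of the 2219 stretches of 31 bases in the former, 34 occurred in no other listed transcript.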
